A study of Mus musculus with 32 samples.

Results

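The products of the Cdkn2a locus and the cyclin D kinases that they restrain were examined at the RNA level in 32 primary mouse melanomas. The 10 genes were Cdkn2a, Cdkn2b, Mtap, Cdk4, Cdk6, Ccnd1, Ccnd2, Ccnd3, Rb1 and Cdkn1b. They were chosen by symbol, not by their values, through the GENCODE names of the Ensembl identifiers in the deposited tables, and they make up 10 of the 50600 genes measured. All 10 passed the filter on low counts. In short, every tumour kept Cdkn2a, Cdkn2b and Mtap RNA, no difference between genotypes or sexes passed the test for any of the 10, and single tumours differed by up to 362.5-fold, for Ccnd2.

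The mice carried Tyr::NrasQ61K, an activated NRAS expressed under the tyrosinase promoter of pigment cells, together with 1 null and 1 intact copy of Cdkn2a (Cdkn2a-/+) and a floxed Cdh1 gene (Cdh1F/F), which encodes E-cadherin. Mice called Ecad had no further transgene (°/°). Mice called ΔEcad had a second Tyr transgene, which the sample labels write as Tyr::NRAS/° and the methods of the study as Tyr::CreA/°, a Cre recombinase that removes Cdh1 in pigment cells only. Each genotype was represented by 8 male and 8 female tumours, and ages of the mice were not given. The Cdkn2a deletion was shared by all 4 groups, so these data hold no comparator with 2 Cdkn2a copies. Whole tumours were sequenced, so the RNA includes that of stromal and skin cells, and fewer cells of a type cannot be told apart from less RNA per cell. Nothing states whether tumours of a group came from separate mice, so that p-values measure the spread between tumours.

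Cdkn2a encodes unrelated proteins from alternative first exons. p16INK4a binds and inhibits Cdk4 and Cdk6, the kinases that D cyclins activate in the G1 phase of the cell cycle. p19ARF inhibits Mdm2 and so stabilises p53. Cdkn2b, next to it, encodes p15INK4b, a second inhibitor of the same kinases, and Mtap, on its other side, encodes a phosphorylase of methionine salvage that is often lost together with CDKN2A in human tumours. When cyclin D kinases are active they phosphorylate Rb1, the retinoblastoma protein, which then releases E2F factors and permits entry into S phase. Cdkn1b encodes p27, which inhibits cyclin E and Cdk2 and also binds cyclin D complexes. Inherited CDKN2A and CDK4 mutations predispose to human melanoma.

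The promoters of the locus are shown because a count for Cdkn2a sums transcripts from separate start sites, which these tables do not separate. RefSeq sequences on GRCm38.p6 were available for 7 of the 10 genes. Bases before the annotated start are printed 5′ to 3′ on the minus strand, and capitals mark matches on either strand to GGGCGG, a GC box, or to TTTNGCGC, a core E2F motif.
Cdkn2a, p16INK4a start, chr4:89282193-89282442: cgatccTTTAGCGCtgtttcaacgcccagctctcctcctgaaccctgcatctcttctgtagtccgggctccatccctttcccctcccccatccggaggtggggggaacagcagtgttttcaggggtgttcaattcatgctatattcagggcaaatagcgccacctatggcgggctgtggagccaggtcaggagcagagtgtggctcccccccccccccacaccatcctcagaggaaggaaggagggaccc
Cdkn2a, p19ARF start, chr4:89294654-89294869: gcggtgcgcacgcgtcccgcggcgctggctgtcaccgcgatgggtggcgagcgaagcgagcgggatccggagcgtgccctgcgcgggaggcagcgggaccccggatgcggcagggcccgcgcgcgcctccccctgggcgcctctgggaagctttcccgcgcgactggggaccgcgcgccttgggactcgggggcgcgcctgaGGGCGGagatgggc
Cdkn2b, p15INK4b start, chr4:89311040-89311282: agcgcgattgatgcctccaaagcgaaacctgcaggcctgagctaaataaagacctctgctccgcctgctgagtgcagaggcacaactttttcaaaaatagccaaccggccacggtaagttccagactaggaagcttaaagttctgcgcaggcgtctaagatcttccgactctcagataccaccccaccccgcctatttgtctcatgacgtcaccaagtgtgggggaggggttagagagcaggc
In windows of 300 bases around the start, the p19ARF promoter held 45 CpG sites and 77.0% G or C, above 98.1% and 97.6% of all 32851 promoters in the table. The p16INK4a promoter held 12 CpG sites and 60.3% G or C, and the Cdkn2b promoter 18 and 57.7%, against medians of 7 CpG sites and 52.7% over all promoters. GGGCGG was found 1 time in the p16INK4a window, 3 times in the p19ARF window and 1 time in the Cdkn2b window, and 35.7% of all promoters held it. TTTNGCGC was found only in the p16INK4a window among these 3, and 1.4% of all promoters held it. The motifs do not overlap each other in the printed stretches, and a match describes letters and not binding.

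Some tumours stood apart before any comparison. Total counts ranged from 24036333 to 63923086. Cdh1, the targeted gene, ranged from 25.0 to 282 TPM (transcripts relative to the whole library, a level scaled for gene length) in Ecad males and from 0.79 to 65.2 TPM in ΔEcad males (log2 difference -3.33, SE 0.96, edgeR adjusted p = 0.365). The male difference ran from -4.41 to -2.98 over the alternatives, and its lowest adjusted p there was under 0.05. Female Ecad tumours held 2.16 to 151 TPM of Cdh1 and female ΔEcad tumours 0.17 to 143 TPM. Their log2 difference was -0.0 (SE 0.87, edgeR adjusted p = 0.999), and ran from -2.87 to 0.93 over the alternatives. The ranges of the genotypes overlapped in both sexes. The 3 ΔEcad females with a keratinocyte marker score (mean log2 CPM) under 0 held 0.17 to 4.51 TPM, the others 45.15 to 143 TPM. The 6 Ecad females with a score under 0 held 2.16 to 151 TPM, the others 39.6 to 102 TPM. The part of skin cells in these Cdh1 values was not tested further. The library labelled ΔEcad male 2 had 0 counts of 4 Y-linked genes, against 1459 to 8800 in the other 15 males. It also had 1752 counts of Xist, an RNA of the X chromosome (6.41 TPM). The other males had 46 counts of Xist or fewer, and the females 2296 or more. This library was kept under its male label in every comparison, and the cause was not tested. All 9 melanocytic markers were found in every tumour, with a summed level of at least 5891 TPM except in ΔEcad male 7, at 31.9 TPM. ΔEcad male 1 and ΔEcad male 2 were low in long transcripts: the log2 level of the longest genes relative to the shortest was -1.36 and -1.04 there, and lay between -0.51 and 0.66 in the other 30. When each of the 32 tumours was left out in turn, none of the 10 genes was called in any comparison.

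Cdkn2a RNA was present in every tumour at 7.70 TPM or more. Cdkn2a (ENSMUSG00000044303, chromosome 4, 89274471 to 89294653, minus strand) had a lowest, median and highest level of 8.11, 17.9 and 101 TPM in Ecad males and 12.8, 16.8 and 40.4 TPM in Ecad females. In ΔEcad males these levels were 7.70, 18.7 and 32.9 TPM, and in ΔEcad females 14.1, 21.7 and 94.9 TPM. The groups overlapped throughout. Ecad male 1 and ΔEcad female 3 were the high tumours, at 549% and 516% of the median of all 32, which was 18.4 TPM. The low ones were ΔEcad male 1, Ecad male 7 and ΔEcad male 2, at 7.70, 8.11 and 8.84 TPM, and these rested on 130, 115 and 158 counts. The null allele may still yield RNA from exons that the deletion leaves, so a gene count does not show that the intact copy was transcribed.

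Cdkn2b, the neighbouring kinase inhibitor (ENSMUSG00000073802, chromosome 4, 89306299 to 89311039, minus strand), was more abundant than Cdkn2a in 30 of the 32 tumours on the TPM scale. Its lowest, median and highest levels were 73.0, 131 and 167 TPM in Ecad males and 31.1, 133 and 488 TPM in Ecad females. In ΔEcad males these levels were 16.9, 124 and 377 TPM, and in ΔEcad females 76.2, 121 and 361 TPM. The medians were close together while single tumours were far apart. ΔEcad male 2 and Ecad female 7 were lowest, at 12.7% and 23.5% of the overall median of 133 TPM, while the next tumour stood at 73.0 TPM, and Ecad female 1 and ΔEcad male 8 were highest.

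Mtap, the methionine salvage enzyme (ENSMUSG00000062937, chromosome 4, 89137122 to 89181081, plus strand), had lowest, median and highest levels of 31.9, 52.3 and 83.3 TPM in Ecad males and 18.7, 53.4 and 100.5 TPM in Ecad females. In ΔEcad males these levels were 8.20, 42.7 and 173 TPM, and in ΔEcad females 18.6, 48.8 and 148 TPM. ΔEcad tumours thus held both the lowest value and the 3 highest, which belonged to ΔEcad male 4, ΔEcad male 2 and ΔEcad female 3. ΔEcad male 1, the lowest, had 381 counts.

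Tumours with little RNA of the locus were sought with a limit of 1 TPM, and with 0.1 TPM for hardly any. For Cdkn2a, Cdkn2b and Mtap alike, 0 of 32 tumours lay under either limit, and 0 lay under 2 TPM. Fisher's exact test between 0 of 16 and 0 of 16 tumours, for genotype and for sex, gave p = 1.0 for all 3 genes (two-sided, adjusted p = 1.0 over 6 tests), and with no such tumour it could give no other value. Stromal cells of the mouse carry the locus too, so a level above the limit in a whole tumour does not show that the melanoma cells kept it.

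**Figure D1:**
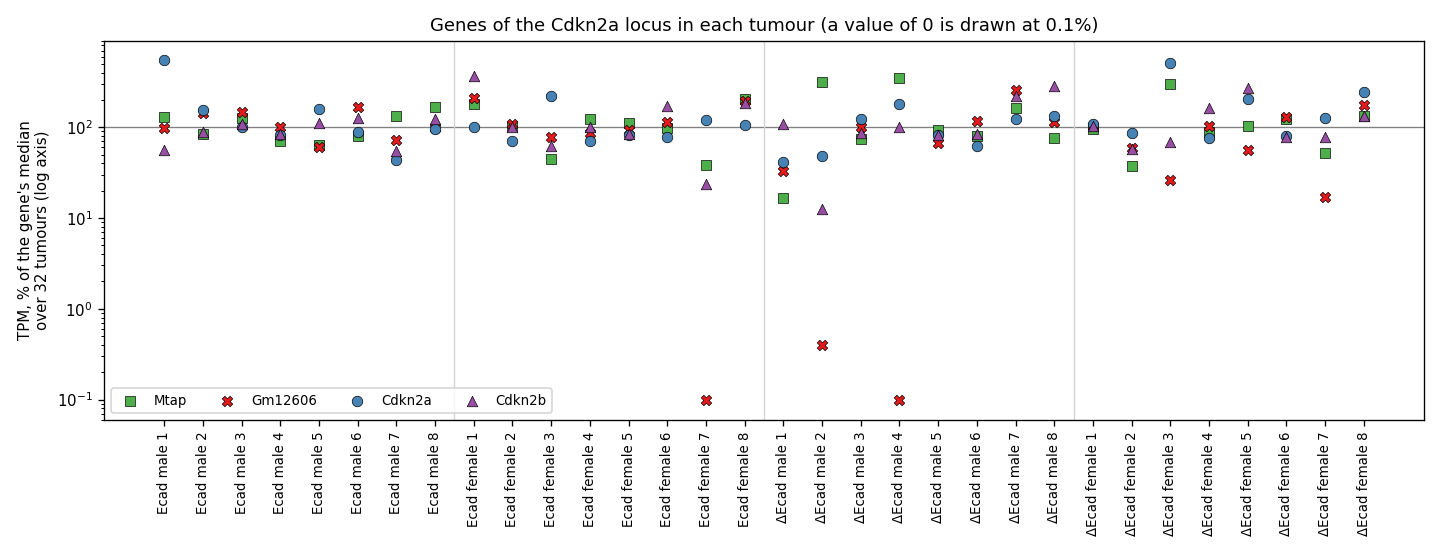
TPM of Mtap, Gm12606, Cdkn2a and Cdkn2b in each of the 32 tumours, as a percent of the gene's median over all tumours, on a log axis, with vertical lines between the 4 groups and a value of 0 drawn at 0.1%. The 3 coding genes stay above 10% of their medians in every tumour, whereas Gm12606 drops to 0.4% or less in Ecad female 7, ΔEcad male 2 and ΔEcad male 4.

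Between Mtap and Cdkn2a lies Gm12606, a long noncoding RNA gene on the minus strand, 1067 bases from Cdkn2a and 54617 bases from Mtap. It was singled out after its values were seen. Gm12606 had 0 counts in Ecad female 7, which allows up to 3, and 6 counts in ΔEcad male 2 and 1 in ΔEcad male 4. In the other 29 tumours it had 193 to 3787 counts, or 11.4 to 176 TPM, so the 3 tumours did not overlap with the rest. In Ecad female 7, Mtap was at 37.9%, Cdkn2a at 120% and Cdkn2b at 23.5% of the median of all tumours. In ΔEcad male 2, Mtap was at 317%, Cdkn2a at 48.1% and Cdkn2b at 12.7%. In ΔEcad male 4, Mtap was at 349.5%, Cdkn2a at 179% and Cdkn2b at 100.5%. Of the 3 tumours, 2 thus held the lowest Cdkn2b levels and the other a median one. No DNA copy number was measured, and ΔEcad male 2 also had the second lowest long-transcript measure.

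No relation between levels along the locus passed the test over the tumours. On log2 CPM (counts relative to library size after TMM scaling, with a prior count of 1), Cdkn2a and Cdkn2b had r = 0.065 (rho = 0.111, adjusted p = 0.869 by permutation over 6 relations, n = 32), Cdkn2a and Mtap r = 0.074 (rho = -0.014, adjusted permutation p = 0.869) and Cdkn2b and Mtap r = -0.005 (rho = 0.116, adjusted permutation p = 0.977). With the 2 most extreme tumours of the first gene left out, these were 0.315, -0.119 and 0.267. Within single groups of 8 tumours the values ran from -0.27 to 0.637, from -0.376 to 0.657 and from -0.588 to 0.861, so that groups of this size gave either sign. With its partners in the pathway, Cdkn2a had r = 0.222 with Rb1, -0.297 with Ccnd1 and -0.09 with Cdk4 (rho 0.15, -0.305 and -0.113; adjusted permutation p = 0.653, 0.605 and 0.869). After group means were removed, the 6 values lay between -0.257 and 0.219.

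**Figure D2:**
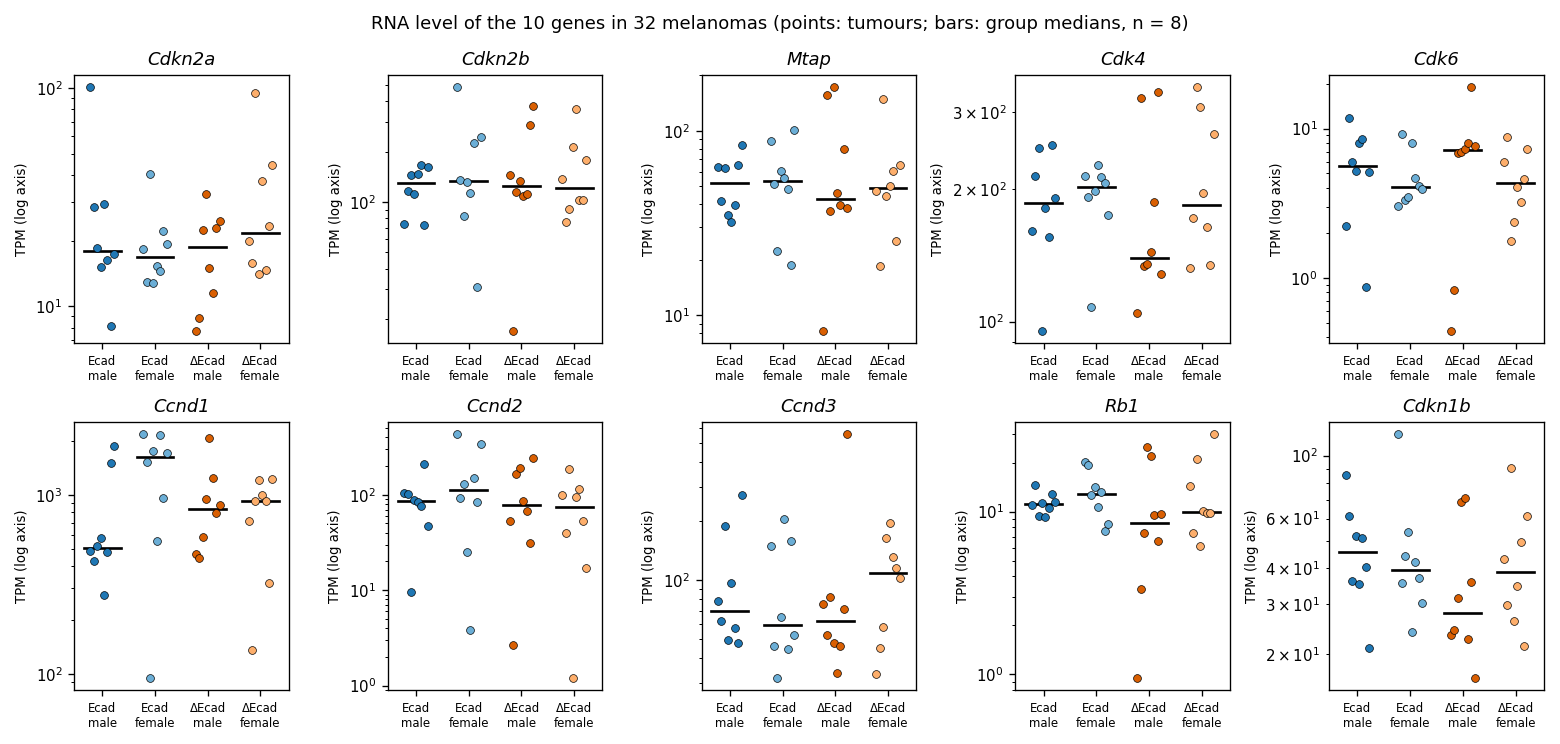
TPM of each of the 10 genes (log axis) in every tumour, by genotype and sex, with bars at the group medians (n = 8). In all 10 panels the 4 groups overlap, and ΔEcad male 1 is the lowest tumour for both Rb1 and Cdk6, at 0.95 and 0.44 TPM.

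Cdk4 was the main kinase of the pair in every tumour. Cdk4 (ENSMUSG00000006728, chromosome 10, 127063534 to 127067920) ranged from 95.1 TPM in Ecad male 4 to 342 TPM in ΔEcad female 3, a 3.6-fold span that was the narrowest of the 10 genes, while Cdk6 (ENSMUSG00000040274, chromosome 5, 3341485 to 3531008) ranged from 0.44 to 18.96 TPM. Group medians of Cdk4 were 186, 203, 139.7 and 184 TPM in Ecad males, Ecad females, ΔEcad males and ΔEcad females, and those of Cdk6 were 5.59, 4.03, 7.15 and 4.34 TPM. Cdk4 made up 94.4% to 99.7% of the summed TPM of both kinases, with a mean of 97.0% ± 1.72 (SD, n = 32). The group means lay between 96.2% and 97.5%, and none of the 4 group differences passed an exact permutation test of 8 against 8 tumours (two-sided, smallest p = 0.2, adjusted p = 0.994 over the 16 shares tested). Cdk6 was lowest in ΔEcad male 1, ΔEcad male 2 and Ecad male 7, at 0.44, 0.83 and 0.87 TPM, and highest in ΔEcad male 7. Cdk4 overlaps Tspan31 on the other strand, and without a stated strand setting their reads may be shared.

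Ccnd1 was the leading D cyclin in 31 of 32 tumours. Ccnd1 (ENSMUSG00000070348, chromosome 7, 144929931 to 144939925), the cyclin that Ras signalling induces, had lowest, median and highest levels of 275, 504 and 1888 TPM in Ecad males and 94.6, 1621 and 2199 TPM in Ecad females. In ΔEcad males these levels were 441, 834 and 2077 TPM, and in ΔEcad females 136, 929 and 1228 TPM. The highest median was that of the Ecad females, yet the lowest tumour of all, Ecad female 3, belonged to the same group. In that tumour Ccnd2 led, with 50.55% of the D cyclin RNA against 37.0% for Ccnd1.

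Ccnd2 (ENSMUSG00000000184, chromosome 6, 127125162 to 127152193) was the most variable of the 10 genes, with an SD of 1.95 in log2 CPM over the 32 tumours, larger than that of 86.9% of the 17717 genes tested. Its lowest, median and highest levels were 9.67, 86.1 and 208 TPM in Ecad males and 3.79, 111 and 435 TPM in Ecad females. In ΔEcad males these levels were 2.63, 77.4 and 243 TPM, and in ΔEcad females 1.20, 73.5 and 187 TPM. In all, 4 tumours lay under 10 TPM, 1 in each group. Those low tumours were Ecad male 3, Ecad female 5, ΔEcad male 2 and ΔEcad female 4. Ccnd3 (ENSMUSG00000034165, chromosome 17, 47505051 to 47599691) ranged from 31.7 to 558 TPM, with group medians of 69.8, 59.0, 61.9 and 109 TPM in the order above. Its highest tumour, ΔEcad male 8, stood apart from the next one, Ecad male 8 at 270.5 TPM.

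The make-up of the D cyclin RNA did not pass a test between groups. Ccnd1 held 76.0% ± 8.36, 78.6% ± 18.5, 80.5% ± 13.9 and 78.3% ± 10.2 of the summed TPM in Ecad males, Ecad females, ΔEcad males and ΔEcad females (SD, n = 8). Ccnd2 held 9.05% to 12.9% and Ccnd3 8.58% to 12.6% as group means. The largest differences were 4.56 percentage points for Ccnd1 in males (ΔEcad minus Ecad, p = 0.441) and -4.03 for Ccnd3 in Ecad tumours (female minus male, p = 0.335), by exact permutation over 12870 splits, and the adjusted p was 0.994 in all 16 tests. With 1 tumour left out, the first ran from 2.33 (without Ecad male 5) to 8.58 (without ΔEcad male 8) and the second from -6.66 (without Ecad female 5) to -2.07 (without Ecad male 3). The Ccnd1 difference between the sexes in Ecad tumours, 2.61, ran from 0.25 (without Ecad female 4) to 8.54 (without Ecad female 3), so which difference was largest depended on single tumours. The single tumours spread more widely than the groups, from 37.0% to 95.1% for Ccnd1. Ccnd1 overlaps LTO1 and Ccnd3 overlaps Bysl, each on the other strand, and their counts are uncertain to that extent.

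**Figure D3:**
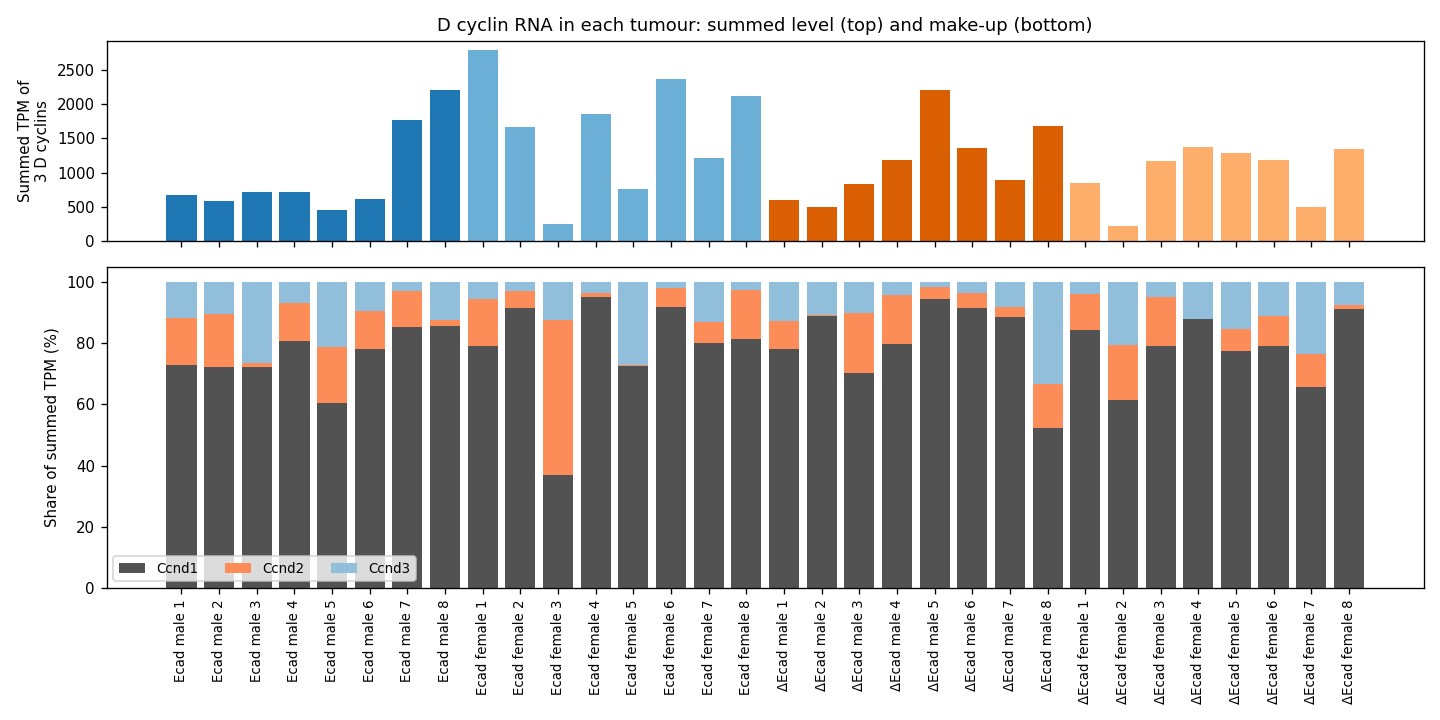
Summed TPM of Ccnd1, Ccnd2 and Ccnd3 in each tumour (top, bars coloured by group) and the share of each gene in that sum in percent (bottom). Ccnd1 is the largest share in 31 of 32 tumours, the exception being Ecad female 3, and the sum ranges from 220.5 TPM in ΔEcad female 2 to 2783 TPM in Ecad female 1.

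Rb1, the target of the kinases (ENSMUSG00000022105, chromosome 14, 73183673 to 73325822), had lowest, median and highest levels of 9.24, 11.2 and 14.6 TPM in Ecad males and 7.65, 12.9 and 20.2 TPM in Ecad females. In ΔEcad males these levels were 0.95, 8.48 and 25.1 TPM, and in ΔEcad females 6.19, 9.96 and 30.1 TPM. Its values were widest in the ΔEcad tumours, which held the lowest and the highest tumours of the series. The 2 lowest, ΔEcad male 1 at 0.95 TPM (82 counts) and ΔEcad male 2 at 3.35 TPM (307 counts), were the 2 tumours low in long transcripts. Over all tumours Rb1 followed that measure with r = 0.793 (rho = 0.653, adjusted permutation p = 0.001 over 50 relations of the 10 genes with 5 measures, n = 32), with r = 0.61 without the 2 extreme tumours and 0.199 to 0.833 within groups. Rb1 overlaps Rcbtb2 and Lpar6. Cdkn1b, the p27 gene (ENSMUSG00000003031, chromosome 6, 134920401 to 134925513), was steadier, from 16.4 to 119 TPM, with group medians of 45.9, 39.5, 27.8 and 38.9 TPM. Cdkn1b also followed the long-transcript measure (r = 0.495, rho = 0.633, adjusted permutation p = 0.0268), whereas Ccnd3 (r = -0.51, rho = -0.629) and Cdk4 (r = -0.489, rho = -0.454) ran against it, each with an adjusted permutation p of 0.0268.

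On the TPM scale the median levels over the 32 tumours fell in the order Ccnd1 (903 TPM), Cdk4 (189), Cdkn2b (133), Ccnd2 (87.8), Ccnd3 (68.2), Mtap (49.4), Cdkn1b (36.6), Cdkn2a (18.4), Rb1 (10.6) and Cdk6 (5.15). All 9 neighbouring pairs in this order overlapped in range over the tumours. The median level of the kinase inhibitor Cdkn2b was 7.2 times the median level of Cdkn2a.

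Between the ΔEcad and Ecad genotypes none of the 10 genes was called, in either sex. In females, ΔEcad minus Ecad differences ran from -1.14 for Ccnd2 (SE 0.76) to 0.58 for Cdkn2a (SE 0.43) on the log2 scale, and the smallest p was that of Ccnd1 (-0.79, SE 0.49, edgeR quasi-likelihood adjusted p = 0.485 over 17717 genes). No gene of the 10 was called, and 1.2% of all genes tested were (213 of 17717), a call being an adjusted p under 0.05 with an absolute log2 fold change over 1. In males they ran from -0.46 for Cdkn2a (SE 0.43) to 0.71 for Cdkn2b (SE 0.48, adjusted p = 0.596 by edgeR), with 0 of the 10 and 0% of all genes called, although 1814 genes, or 10.2%, had an unadjusted p under 0.05. Over both sexes together the differences lay between -0.32 and 0.43, with 0 of the 10 and 0.0113% of all genes called. The Cdkn2a value in males rested on Ecad male 1, for without that tumour it was 0.15 (SE 0.38). Single tumours also moved other values. In females the Cdkn2a difference was 0.21 without ΔEcad female 3 and 0.91 without Ecad female 3, and in males that of Cdkn2b was 0.28 without ΔEcad male 8. That of Ccnd3 in males, 0.62 (SE 0.61), became -0.61 (SE 0.49) without ΔEcad male 8.

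Sex gave no call among the 10 genes either. Female minus male differences in Ecad tumours ran from -0.41 for Cdkn2a (SE 0.43) to 0.90 for Ccnd2 (SE 0.75), with Ccnd1 at 0.79 (SE 0.49, edgeR adjusted p = 0.44), and 0 of the 10 were called against 0.0508% of all genes. In ΔEcad tumours they ran from -0.75 for Ccnd2 (SE 0.75) to 0.63 for Cdkn2a (SE 0.43, edgeR adjusted p = 0.685), with 0 of the 10 and 0.0395% of all genes called. The genotype difference in females minus that in males was largest for Ccnd2 (-1.65, SE 1.06), Ccnd1 (-1.17, SE 0.69) and Cdkn2a (1.04, SE 0.61), with adjusted p = 0.434, 0.384 and 0.385 by edgeR, and again 0 of the 10 were called, with 0% of all genes. Without Ecad male 1, the Cdkn2a value was 0.43 for this difference and 0.20 for sex in Ecad tumours, and without ΔEcad female 3 it was 0.26 for sex in ΔEcad tumours. The Ccnd1 value for sex in Ecad tumours was 1.22 without Ecad male 8, and the Ccnd2 value for sex in ΔEcad tumours was -0.25 without ΔEcad male 8. None of the 10 had an unadjusted p under 0.05 in any of the 6 comparisons, where 15.3%, 10.2% and 9.88% of all genes did for genotype in females, males and both sexes, 16% and 8.81% for sex in Ecad and ΔEcad tumours, and 17.7% for the difference between the genotype effects. In no comparison of 8 against 8 tumours did the groups of any of the 10 genes lie apart without overlap, which 0.0339% and 0.0395% of all genes did for genotype in females and males, and 0.113% and 0.0113% for sex in Ecad and ΔEcad tumours. With SEs of 0.26 to 0.76 in the female genotype comparison, a p that misses the threshold does not show that levels were alike.

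**Figure D4:**
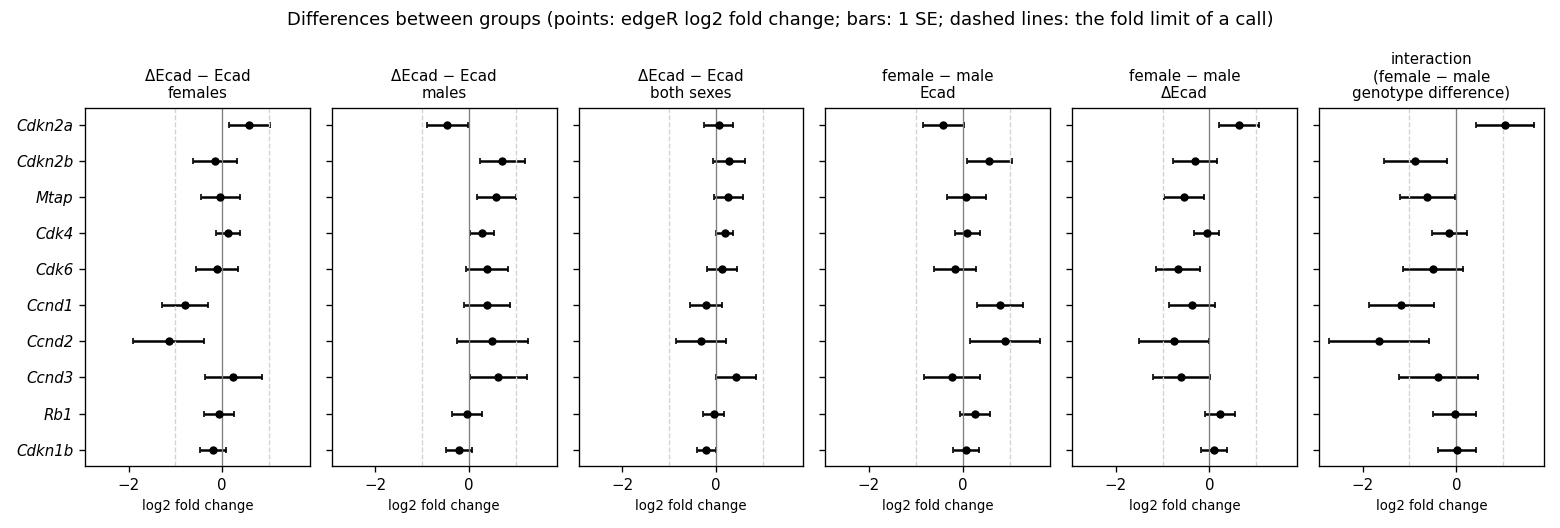
Log2 fold change of each gene in the 6 comparisons (points, edgeR) with 1 SE (bars), with dashed lines at the absolute fold change of 1 that a call requires. The values lie between -1.65 and 1.04, and the widest bar in each comparison is that of Ccnd2, with an SE of 1.06 in the interaction.

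Ccnd1 levels are set beside the keratinocyte markers of the tumours. The score of 10 keratinocyte markers (mean log2 CPM) lay at -2.50 or below or at 3.97 or above in 29 tumours. It lay between these values in 3, so no relation of Ccnd1 was given across both sets. A limit of 0, set after the values were seen, put 13 tumours (-4.14 to -0.29) below and 19 (1.28 to 10.3) above. Ccnd1 had a lowest, median and highest level of 788, 1206 and 2199 TPM in the 13 tumours and 94.6, 521 and 2077 TPM in the 19. Within the 13 the relation of Ccnd1 with the score had r = -0.491 and within the 19 r = -0.447 (rho -0.489 and -0.454, permutation p = 0.0887 and 0.0547, adjusted p = 0.355 and 0.273 over 20 relations), so neither passed. The 13 tumours were 6 of 8 Ecad females, 1 of 8 Ecad males, 3 of 8 ΔEcad males and 3 of 8 ΔEcad females. With the keratinocyte and melanocytic scores as covariates, the Ccnd1 difference was 0.22 in place of -0.79 between the genotypes in females, and -0.18 in place of 0.79 between the sexes in Ecad tumours. The part of skin cells in these values was not tested further.

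Mtap and Cdk4 were higher in tumours with more S phase RNA. Over the 32 tumours, the mean log2 CPM of 16 S phase genes under E2F control, among them Mcm2 and Pcna, had r = 0.527 with Mtap (rho = 0.548) and 0.493 with Cdk4 (rho = 0.464), each with an adjusted permutation p of 0.0268 over the 50 relations. The values kept their sign in every group of 8, from 0.449 to 0.634 for Mtap and from 0.309 to 0.844 for Cdk4, and were 0.437 and 0.419 without the 2 extreme tumours. With the same score Cdkn2a had r = -0.265 (adjusted permutation p = 0.369, rho = -0.368 with adjusted permutation p = 0.129). Its r was -0.489 without the 2 extreme tumours. Rb1 had r = 0.067 with that score (adjusted permutation p = 0.828). Cdk6 followed 8 fibroblast markers with r = 0.492 (adjusted permutation p = 0.0268, rho = 0.431 with adjusted p = 0.0602). Without Ecad female 8 and ΔEcad male 1, the 2 tumours farthest from the median score, r was 0.432. ΔEcad male 7, which held 31.9 TPM of melanocytic markers, stayed in that value. It was highest in both Cdk6 (18.96 TPM) and the fibroblast score (9.74), and its part in the relation was not tested. Mtap and Cdk4 also moved with other measures. In the 13 tumours with a low and the 19 with a high keratinocyte score, the median level of Mtap was 60.6 and 41.7 TPM and that of Cdk4 207 and 164 TPM. Within these sets Cdk4 had r = -0.569 and -0.551 with that score and Mtap r = 0.363 and -0.449 (rho -0.44, -0.574, 0.363 and -0.454), with adjusted permutation p = 0.273, 0.273, 0.593 and 0.273. Cdk4 ran against the long-transcript measure as well, as given above, and the part of these measures in the S phase relation was not tested. These 50 relations were chosen after the data were seen, and all points share the tumours' libraries and scaling.

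**Figure D5:**
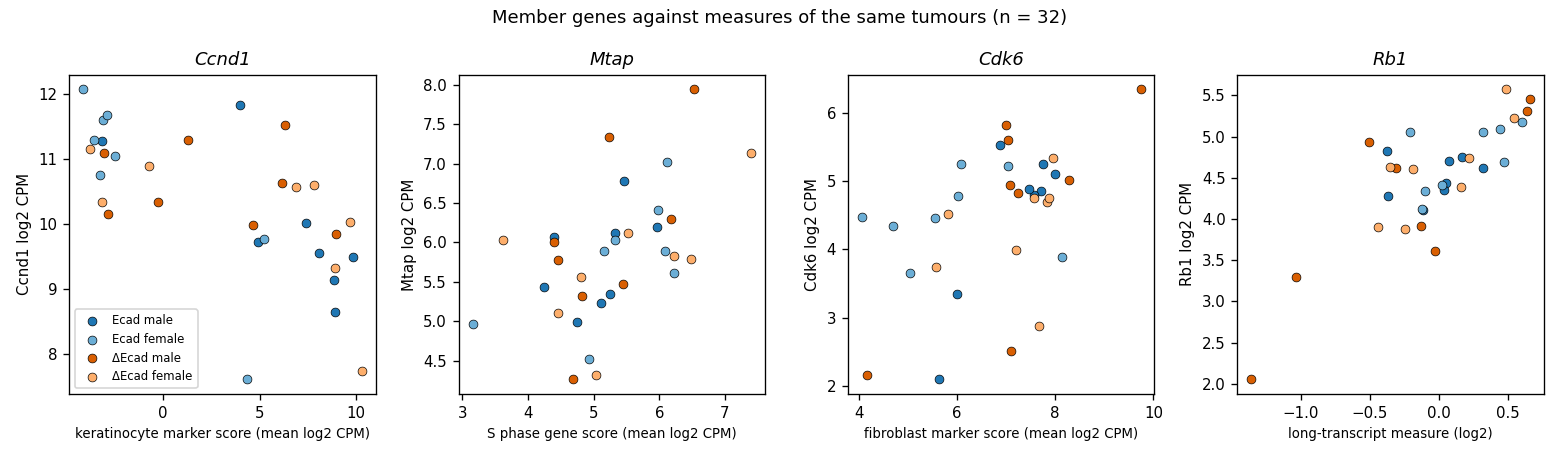
Log2 CPM of Ccnd1, Mtap, Cdk6 and Rb1 against the keratinocyte marker score, the S phase gene score, the fibroblast marker score and the long-transcript measure, 1 point per tumour, coloured by group (n = 32). The keratinocyte score splits into 13 tumours below 0 and 19 above, and ΔEcad male 1 is lowest in Rb1 at a long-transcript measure of -1.36.

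Genes whose log2 CPM was most like that of Cdkn2a, Cdkn2b, Mtap and Ccnd1 are given with Pearson r over 32 tumours, as a description. For Cdkn2a they were Smad9 (0.68, itself at a median of 0.24 TPM), Celf5 (0.616), Ssbp1 (0.605), Lmo4 (0.599) and Tmem209 (0.592). For Cdkn2b the first was Gm12606 (0.589), 32895 bases away across Cdkn2a, followed by Rnf138rt1 (0.539), mt-Nd6 (0.538), Ppp2r5a (0.514) and Ube2d1 (0.512). The 2 tumours lowest in Cdkn2b, ΔEcad male 2 and Ecad female 7, had 6 and 0 counts of Gm12606. The r of Cdkn2b with Gm12606 was not computed without them. For Mtap they were Dars (0.794), Gm12696 (0.788, 8340346 bases away on chromosome 4), Yipf5 (0.752), Ttll5 (0.752) and Gspt1 (0.735). For Ccnd1 the first was Fadd (0.81), a neighbour on chromosome 7 at a distance of 347467 bases, then Fam222b (0.78), Ap2b1 (0.78), Atxn7l3b (0.779) and Tyw1 (0.765).

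No gene of the 9 lists around the pathway was called in any of the 6 comparisons. Among the inhibitors outside the locus, Cdkn1c (p57) came closest in females, with a lowest, median and highest level of 2.06, 8.68 and 26.9 TPM in Ecad and 1.38, 31.3 and 364 TPM in ΔEcad tumours, and a log2 difference of 2.81 (SE 1.01, adjusted p = 0.132 by edgeR). In Ecad tumours Cdkn1c differed by -3.26 between females and males (SE 1.03, edgeR adjusted p = 0.118). Next by p in females was Cdkn2d (p19INK4d), at -0.21 (SE 0.31, edgeR adjusted p = 0.837). Of these 4 inhibitors 0 were called, and their median difference in females was 0.16 against -0.018 over all genes tested.

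Among 12 genes of the Rb family and E2F, Tfdp2, a partner of E2F, and Rbl2 (p130) had the smallest p in females, at -0.39 (SE 0.21) and -0.52 (SE 0.31), and the median was -0.01. Among 7 cyclins and kinases of the G1/S step, Cdk2 was at -0.67 (SE 0.38) in females, -1.31 (SE 0.38, edgeR adjusted p = 0.375) in males and -0.99 (SE 0.27, adjusted p = 0.221 by edgeR) over both sexes, while Ccna2 was at 0.48 (SE 0.56) in females. Cdk2 overlaps Pmel, a pigment cell gene on the other strand with 2721921 counts over the tumours against 332858 for Cdk2, so the Cdk2 values are uncertain. Among 16 S phase genes, Cdt1, a licensing factor, was at -0.46 (SE 0.29) and Rrm2, a subunit of ribonucleotide reductase, at 1.02 (SE 0.69), with a list median of 0.16. Of these 35 genes none was called, and none of the 12, 1 of the 7 and 1 of the 16 had an unadjusted p under 0.05 over both sexes, where 9.88% of all genes tested did.

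In the p53 arm of 6 genes, Bbc3 (Puma) was at 0.46 (SE 0.22) and Ccng1 at 0.44 (SE 0.29) in females, and the list median was 0.27. Among 9 repressors of the locus, Id1 was at 1.10 (SE 0.57) and Bmi1, a Polycomb protein that silences Cdkn2a, at -0.35 (SE 0.29), with a median of -0.18. Among 8 genes of methionine salvage and the PRMT5 complex, which Mtap loss makes tumour cells depend on, Mat2a was at -0.52 (SE 0.38) and Apip at 0.38 (SE 0.34), with a median of -0.06. Among the 6 tested of 9 chromosome neighbours, Mllt3 was at 0.74 (SE 0.39) and Hacd4 at 0.61 (SE 0.41), with a median of 0.07. Among 10 genes that act on p27 and cyclin D stability, Fbxo4 was at -0.53 (SE 0.27) and Gsk3b, which phosphorylates cyclin D1, at -0.48 (SE 0.27), with a median of -0.07. These differences are all ΔEcad minus Ecad in females, and 1 of the 39 genes, Bbc3, had an unadjusted p under 0.05 there (0.0497), against 15.3% of all genes tested.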

How the data were processed

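The authors prepared stranded poly(A) libraries, mapped the reads with STAR to mm10 (GRCm38.p5, GENCODE M13) and deposited raw counts per gene and TPM. Batch correction is described only where applicable, and the strand setting of the counting is not given in the sources used here. Counts and TPM of 996 abundant genes differed by 1 length per gene within 0.0698%. GENCODE M21 named 50376 of 50600 identifiers.

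Counts were tested with edgeR 4.0.16 (two-sided quasi-likelihood, robust, TMM, filterByExpr) in 1 model of 32 tumours, which kept 17717 genes, with Benjamini-Hochberg adjustment over all of them. The SE given with an edgeR difference is the absolute log2 fold change divided by the square root of the F statistic. The fit was tested on simulated data for the female genotype comparison. Of genes given a log2 change of 2, 54% were called, and of those given 4, 84.8% were. In that simulation, 3 unchanged genes were called. Correlations used 100000 permutations. Floors cover counting error only. The long-transcript measure compared the longest with the shortest of 10752 genes that had over 20 counts in every tumour.

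Named were the 10 genes, Cdh1, from each list the called genes and the 2 with the smallest p in the female genotype comparison, and the 5 genes most correlated with Cdkn2a, Cdkn2b, Mtap and Ccnd1. Gm12606 and genes of extreme p in other comparisons were added later. The genes and lists were chosen with earlier results of these data known. Alternatives were DESeq2 1.42.0, limma 3.58.1, other scaling, filters and covariates, and each tumour left out. R 4.3.3 and Python 3.11.15 were used.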

Additional observations from a re-analysis of the deposited data

Results flagged for a closer look

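In 44 sets of 8 log2 CPM values (the 10 genes and Gm12606 in each group), a single tumour lay far outside the others in 2, and chance gives about 1 in 20. Ccnd2 in Ecad male 3 was at 4.97 log2 CPM (9.67 TPM), below 47.0 to 208 TPM in the other 7 Ecad males. Gm12606 in Ecad female 7 was at -5.19 log2 CPM (0 counts), below 52.5 to 144 TPM in the other 7 Ecad females. That gene was singled out after its values were seen, so its flag cannot be set against the 1 in 20.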

How the results depend on the processing

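None of the 10 genes was called in any of the 2460 values that 42 alternatives gave. Restricting the fit to the tumours compared was run for the 4 comparisons of 2 groups, and leaving out robust estimation for the other 2 comparisons. Direction turned 106 times for differences within 1 SE of 0. Among larger ones, marker scores as covariates turned Ccnd1 to 0.22 (genotype, females), Ccnd1 to -0.18 and Cdkn2b to -0.20 (sex, Ecad), and Cdkn2b to 0.10 and Mtap to 0.07 (interaction). Voom turned Cdk4 to -0.05 (genotype, both sexes) and Ccnd2 to -0.06 (sex, Ecad). With single tumours left out, Cdkn2a in males ran from -0.61 to 0.15, and Ccnd3 from -0.61 to 1.09 in males and -0.19 to 0.67 over both sexes. The cause was not tested.

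Counts over all genes depended on the processing. For genotype in females the count of 213 was 1548 with DESeq2, 322 with RLE factors, 555 without the filter, 11 with marker scores, 1 with voom and 1 with only the tumours compared. It was 3 without ΔEcad male 1 and 2 and 2 with the long-transcript covariate, both chosen after seeing the data. For males, 0 became 37 with DESeq2. For both sexes, 2 became 131 with DESeq2, 1 without the filter, 0 with voom and 11 with the long-transcript covariate. For sex in Ecad, 9 became 1159 with DESeq2, 115 with voom and 14 with marker scores. For sex in ΔEcad, 7 became 44 with DESeq2 and 0 with only the tumours compared. For the interaction, 0 became 1457 with DESeq2, 201 with RLE, 284 without the filter and 3 with marker scores. Single tumours left out gave 1 to 695 in females (highest without ΔEcad female 4), 1 to 3 over both sexes, 8 to 21 for sex in Ecad (highest without Ecad female 5) and 0 to 848 for the interaction (highest without ΔEcad male 3).

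The tumour number as a replicate block gave 1 gene in females, 1 over both sexes, 0 in males, 8 and 7 for sex and 0 for the interaction, with 0 of the 10 genes. Same-numbered tumours had correlated deviations over 0.1 in 18 of 48 pairs (-0.547 to 0.423). Differently numbered tumours were not compared in this way, so these values cannot decide whether the numbers pair tumours. The 6 relations of Cdkn2a and Cdkn2b did not pass under any alternative tried, the closest being Cdkn2a with Rb1 on log2(TPM + 0.1) (r = 0.44, adjusted permutation p = 0.0986). No share passed with CPM or with medians; with 1 tumour left out, shares were not tested again. Limits of 0.5 and 2 TPM found 0 tumours with little RNA. By rank, 4 of the 50 relations with measures changed side. Cdk6 with fibroblast markers no longer passed (adjusted permutation p = 0.0602). Mtap with keratinocyte markers, Ccnd1 with melanocytic and Ccnd2 with fibroblast markers passed only by rank (adjusted permutation p = 0.0385 each). The Mtap relation pooled the low and high sets of the keratinocyte score. It passed within neither set (rho = 0.363 and -0.454, adjusted permutation p = 0.555 and 0.351).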
